A study of Mus musculus with 12 samples.

Results

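Malat1, Neat1, Miat, Gas5, Snhg11, Sox2ot, Pantr1 and Rmst are long noncoding RNAs that are retained in the nucleus, host small nucleolar RNAs or are known from the developing nervous system. They were found by their symbols in the raw count files of the input libraries, and all 8 were present among 24525 genes. 7 of the 8 passed the filter on low counts and were tested together with the other genes, 13112 in all, while Rmst did not. The study asked what the loss of Ythdf2, a cytoplasmic reader of N6-methyladenosine (m6A), does to neural stem/progenitor cells (NSPCs). Input libraries, which hold mRNA set aside before the m6A antibody step, came from 3 wild-type and 3 Ythdf2-/- NSPC samples of C57BL/6 embryos at E14.5. The cells of both genotypes were grown as neurospheres at passage 1 with EGF (20 ng/ml) and bFGF (10 ng/ml), and none was treated. Ythdf2-/- embryos came from crosses of heterozygous mice in which a ubiquitously expressed Cre had removed the 5′ UTR and exon 1, so every cell type of the culture carried the deletion. The m6A-IP libraries of the same cultures were not analysed here. The study calls the samples of a genotype biological replicates, and nothing in the sources used here says whether they came from separate embryos, so the p-values measure only the spread between these samples.

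Long noncoding RNAs act as RNA and not through a protein. Malat1 gathers in nuclear speckles, which hold splicing factors, and Neat1 is the scaffold of paraspeckles. Gas5 and Snhg11 carry small nucleolar RNAs in their introns, and the spliced host transcripts are turned over in the cytoplasm. Sox2ot, Pantr1 and Rmst are transcribed in neural progenitors or young neurons, Sox2ot and Pantr1 at genes of neural transcription factors. Ythdf2 binds methylated RNA in the cytoplasm and brings in the deadenylation machinery, and Malat1 and Neat1 are known to carry m6A.

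For the targeted gene, Ythdf2, the wild-type libraries gave 71.8, 73.3 and 91.3 CPM (reads of a gene per 1000000 counted reads, with the library total scaled by its TMM factor) and the Ythdf2-/- libraries 11.7, 14.7 and 11.1 CPM. What remained was 15.8% of wild type, without overlap between the genotypes (edgeR's quasi-likelihood test: log2 fold change -2.66, adjusted p = 0.0547, and 0.0203 without wild-type replicate 3). The libraries held 11029827 to 13185778 counted reads, and the 8 RNAs together took 0.412% to 1.19% of them, with the highest share in wild-type replicate 3. This library stood apart. A chi-square comparison of the counts gave 140 and 136 per degree of freedom against wild-type replicates 1 and 2, while those replicates differed from each other by 4.57 and the Ythdf2-/- replicates by 22.5 to 56.5. The progenitor markers Nes, Vim and Fabp7 were abundant in all libraries, but the summed level of the 8 neural progenitor markers was 3404 CPM in wild-type replicate 3 and 4804 to 6503 CPM in the other 5. Nes, Vim and Fabp7 carried that lower sum, while the other 5 markers of the list (Sox2, Hes1, Hes5, Pax6 and Prom1) were highest in that library. The 12 oligodendrocyte lineage markers together had 5107 CPM in that library and 1802 to 2232 CPM in the others, although Olig1, Olig2 and Cspg4 were lowest there. The 14 neuron markers had 2206 CPM there against 1330 to 1576 CPM, although Gap43 and Nefl were lowest there. The 8 astrocyte markers had 9614 CPM in that library and 2878 to 6902 CPM elsewhere. Gfap, Gja1, Aldoc and Aqp4 were highest there, while Aldh1l1, S100b, Slc1a2 and Slc1a3 were not. The 6 mesenchymal markers had 32.3 CPM there and 0.888 to 4.35 CPM elsewhere, but Pdgfrb alone gave 31.7 CPM of that sum, and Col1a1, Col3a1 and Lum were at 0 there. The 9 microglia markers summed to 2.73 to 5.72 CPM, with Ptprc, C1qa, C1qb and C1qc at 0 in every library, and the 6 endothelial markers to 1.01 to 3.51 CPM, with Cldn5 at 0. The part of this cell mixture in the values below was not tested, and in bulk samples fewer cells of a type and less RNA per cell cannot be told apart.

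The 8 RNAs spanned most of the range of levels in these libraries, which were made from purified mRNA. Per kilobase of RefSeq exon, Malat1 was highest and lay above 99.8% of the genes tested, with 901.9 ± 599.8 CPM per kb (SD, n = 3) in wild type and 867 ± 259 in Ythdf2-/-. Gas5 followed with 250.3 ± 52.6 and 175 ± 17.6 CPM per kb, above 98.0% of genes, and Pantr1 with 134 ± 22.9 and 142 ± 35.0 CPM per kb, above 96.8%. Gas5 and Pantr1 overlapped in their ranges over the 6 libraries. The median gene had 10.1 CPM per kb. Miat had 25.1 ± 33.3 CPM per kb in wild type and 14.52 ± 8.24 in Ythdf2-/-, and Sox2ot had 8.04 ± 4.31 and 5.87 ± 2.27. These levels also overlapped with each other. Snhg11 had 1.29 ± 0.188 and 1.03 ± 0.630 CPM per kb, and Neat1 had 0.869 ± 0.461 and 0.604 ± 0.153, again with overlapping ranges. Rmst was lowest, at or below 0.272 CPM per kb in every library. With RefSeq exon lengths, the steps of this order, Malat1, then Gas5 and Pantr1, then Miat and Sox2ot, then Snhg11 and Neat1, then Rmst, did not overlap with each other in any library. The level of Neat1 depends on the transcript: divided by the short form alone (3185 bases) it lay above 31.8% of genes, and by the full locus above 8.13%. Gas5 lay above 89.0% of genes when the length in the deposited gene table (2554 bases) was used in place of the RefSeq exons (620 bases).

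**Figure D1:**
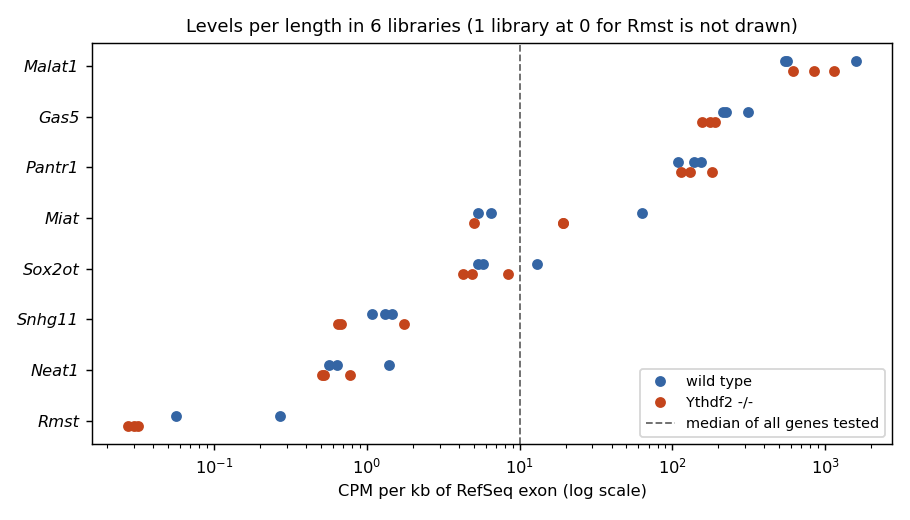
Level of each RNA in CPM per kilobase of RefSeq exon (log axis) in 3 wild-type and 3 Ythdf2-/- libraries, 1 point a library, with the median of the genes tested as a dashed line. Malat1, Gas5 and Pantr1 lay above 10.1 CPM per kb in every library, while Snhg11, Neat1 and Rmst lay below it.

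At an adjusted p under 0.05, edgeR's test called 0 of the 7 tested RNAs, with 0.0% of all genes called. At an unadjusted p under 0.05, 1 RNA was lower in Ythdf2-/- (Gas5) and 0 were higher, where 1.82% and 1.81% of all genes were. DESeq2 and limma-voom, with or without sample quality weights, also called 0 of the 7, although DESeq2 gave Miat no p-value. In 1 RNA, again Gas5, all 3 Ythdf2-/- values lay below all 3 wild-type values, and in 0 above, where the background over all genes was 4.92% lower and 5.26% higher. The log2 fold changes were below 0 for 6 RNAs and above 0 for 1, with a median of -0.45 against -0.01 over all genes tested. Without wild-type replicate 3 the same 7 RNAs had a median of 0.003, with 4 above 0 and 3 below. Wild-type replicate 3 held the highest of the 6 values in 5 of the 7 RNAs, as it did in 33.8% of all genes, and was at least 2-fold above the mean of wild-type replicates 1 and 2 in 4 of them, as in 12.0% of all genes.

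**Figure D2:**
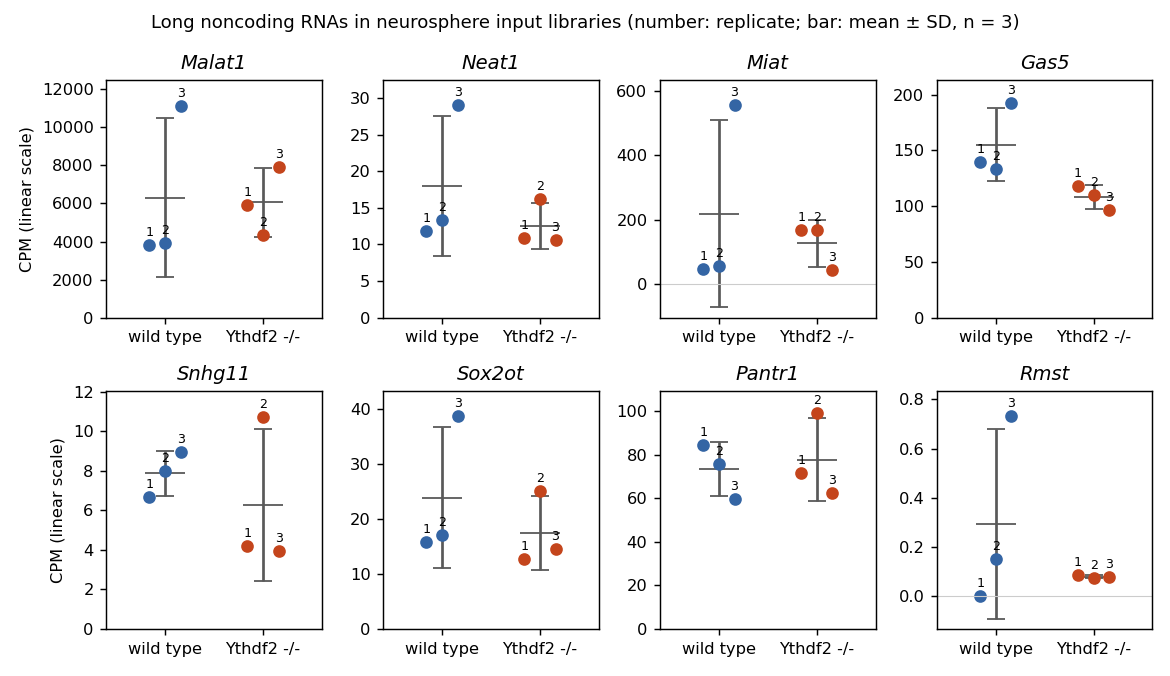
CPM of each RNA (linear axes, each with its own scale) in wild-type and Ythdf2-/- libraries, with replicate numbers beside the points and bars for the mean ± SD (n = 3). The genotypes are apart for Gas5, with 133 to 193 CPM in wild type and 96.8 to 118 CPM in Ythdf2-/-, and overlap for the others.

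Malat1, the speckle RNA, was the most abundant of the set, with 3816, 3943 and 11130 CPM in wild-type replicates 1, 2 and 3. It had 5902, 4328 and 7939 CPM in Ythdf2-/- replicates 1, 2 and 3. Wild-type replicate 3 was highest of all and the other wild-type libraries were lowest, so the genotypes overlapped. EdgeR set the difference at -0.06 on the log2 scale (standard error 0.506, adjusted p = 0.999). Without wild-type replicate 3, all 3 Ythdf2-/- values lay above both remaining wild-type values, as in 18.9% of all genes (20.0% lay below both), and edgeR's estimate became 0.64 (standard error 0.283, adjusted p = 0.322). Limma-voom with sample quality weights, which gave wild-type replicate 3 a weight of 0.0957, set Malat1 at 0.62 (adjusted p = 0.0922).

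Malat1 lies on chr19:5795690-5802672 (minus strand, GRCm38.p6, the same assembly as mm10) as a single exon of 6983 bases. The abundant nuclear RNA is cut upstream of the annotated end, at the tRNA-like mascRNA (chr19:5795924-5795981), and keeps a genome-encoded A-rich tract with U-rich stretches before it in place of a poly(A) tail. Neat1 (chr19:5824708-5845480, minus strand) has a short form of 3185 bases that ends behind a poly(A) signal and a long form of 20771 bases that ends in such a tract. The ends are shown because the libraries were made from mRNA, which is usually purified by its poly(A) tail. The paper purified it in 2 rounds with a Dynabeads mRNA kit. For transcripts without such a tail, the measured levels need not reflect the amount in the cells. In the lines below, taken from the RefSeq assembly, capitals mark runs of at least 5 T or 4 A in the lines for Malat1 and the long form of Neat1, and the poly(A) signal AATAAA in the line for the short form.
Malat1, 110 bases before mascRNA, chr19:5795982-5796091: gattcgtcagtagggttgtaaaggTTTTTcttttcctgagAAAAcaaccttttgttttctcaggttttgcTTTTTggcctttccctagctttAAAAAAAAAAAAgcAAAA
Neat1, last 110 bases of the long form, chr19:5824708-5824817: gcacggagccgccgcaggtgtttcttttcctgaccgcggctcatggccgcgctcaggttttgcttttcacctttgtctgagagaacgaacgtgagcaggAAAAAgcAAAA
Neat1, last 50 bases of the short form, chr19:5842296-5842345: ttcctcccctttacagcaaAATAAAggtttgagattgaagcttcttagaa
The Malat1 stretch ended in a run of 12 A followed by gc and 4 A, and its last 11 bases were the same as those of the long form of Neat1. The 2 stretches also shared a run of 16 bases, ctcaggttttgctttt, from base 59 in Malat1 and base 52 in Neat1. The counts are per gene, so reads of the short and long forms of Neat1 could not be told apart.

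Neat1, the paraspeckle scaffold, had 11.8, 13.3 and 29.1 CPM in wild-type replicates 1, 2 and 3, from 138, 174 and 318 reads. It had 10.9, 16.2 and 10.5 CPM in Ythdf2-/- replicates 1, 2 and 3. Wild-type replicate 3 and Ythdf2-/- replicate 2 were the highest of their groups, and the genotypes overlapped. The log2 fold change of -0.52 (standard error 0.402, adjusted p = 0.999, edgeR) was 0.003 without wild-type replicate 3. Among 17 genes of paraspeckle proteins, 0 passed edgeR's adjusted p of 0.05 and 1 had an unadjusted p under 0.05 (lower), with 13 log2 fold changes below 0 and 4 above and a median of -0.07. The core protein genes Nono and Sfpq had 489 and 447.5 CPM in wild type and 432 and 438 CPM in Ythdf2-/-, on average over 3 libraries. Hnrnpk, Hnrnpf and Matr3, the most abundant of the list, had log2 fold changes of -0.17, -0.06 and -0.15. The 14 genes of nuclear speckle proteins had a median of -0.15 with 13 below 0 and 1 above, where 51.9% of all genes tested were below 0, and 0 were called. Between genotypes, 4 genes of the paraspeckle list (among them Pspc1, Hnrnph1 and Matr3) and 1 of the speckle list (Pnn) did not overlap, all lower, as in 4.92% of all genes. Son and Srrm2, which build the speckle core, had -0.03 and 0.06. Without wild-type replicate 3 the speckle list had 10 below 0 and 4 above (median -0.20), with Son and Srrm2 at 0.20 and 0.21, and the paraspeckle list had 14 below and 3 above (median -0.15).

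Miat, also called Gomafu, is a spliced RNA that stays in the nucleus of neural cells. It had 46.9, 56.8 and 556 CPM in wild-type replicates 1, 2 and 3, and 168, 169 and 43.9 CPM in Ythdf2-/- replicates 1, 2 and 3. Low values came from both genotypes, and wild-type replicate 3 alone exceeded the others, at 10.7 times the mean of wild-type replicates 1 and 2. A ratio of at least 5 at this place was found in 1.94% of the genes tested. Miat thus varied most of the 7 RNAs, with 12.7 times between its highest and lowest library, against a median of 1.76 times over all genes, and 4.03% of genes varied more. The log2 fold change of -0.79 (standard error 1.05, adjusted p = 0.999, edgeR) turned to 1.30 (standard error 0.571, adjusted p = 0.324) without wild-type replicate 3. Even then Ythdf2-/- replicate 3, at 43.9 CPM, lay below both wild-type libraries. Miat lies on chr5:112213228-112228948 (minus strand, 7 exons).

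**Figure D3:**
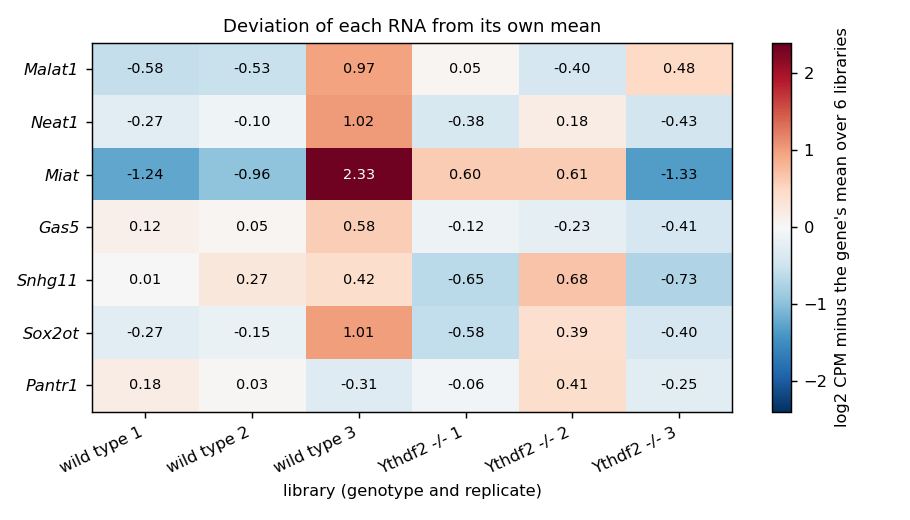
Deviation of log2 CPM (prior count 2) from the mean of each RNA over the 6 libraries, as a colour and a printed value. Miat reached 2.33 in wild-type replicate 3, where Malat1, Neat1 and Sox2ot lay between 0.97 and 1.02, and Pantr1 was -0.31.

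Gas5 accumulates when cells stop growing, and its introns hold box C/D small nucleolar RNAs. It had 140 CPM (1632 reads), 133 CPM (1749) and 193 CPM (2109) in wild-type replicates 1, 2 and 3. It had 118 CPM (1390 reads), 110 CPM (1485) and 96.8 CPM (1204) in Ythdf2-/- replicates 1, 2 and 3. All Ythdf2-/- values lay below all wild-type values, at 69.8% of the wild-type mean. EdgeR's test gave a log2 fold change of -0.52 (standard error 0.183), with an unadjusted p of 0.0281 and an adjusted p of 0.999, so the difference did not pass the threshold over all genes. It was below 0 whichever library was left out, from -0.62 to -0.33, but the unadjusted p of edgeR's test was 0.0635 without Ythdf2-/- replicate 2 and 0.0934 without Ythdf2-/- replicate 3. Without wild-type replicate 3 it was -0.33 (standard error 0.112, adjusted p = 0.242, edgeR). The FPKM values gave the opposite sign, but they rest on expected counts of 0, 0 and 1 in wild type and 1, 0 and 4 in Ythdf2-/-.

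Gas5 lies on chr1:161034601-161038539 (plus strand) with 8 RefSeq transcripts of 6 to 12 exons and 8 small nucleolar RNA genes inside it. The stretch around its second annotated start and the last 50 bases are shown because host genes of this kind are known to begin transcripts with a C followed by pyrimidines, the start of RNAs whose translation follows growth. Capitals mark that run in the first line (30 bases before the start are included) and the poly(A) signal ATTAAA in the second.
Gas5, second start, chr1:161035136-161035195: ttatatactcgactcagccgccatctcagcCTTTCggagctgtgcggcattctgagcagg
Gas5, 3′ end, chr1:161038490-161038539: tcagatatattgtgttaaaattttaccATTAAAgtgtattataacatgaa
A start at C with at least 4 further pyrimidines was found in 2.51% of 32851 annotated mouse starts in RefSeq, counted by start. The counts that follow are by gene, where any start was enough, so they cannot be set directly against that share. Of the 4 long noncoding RNAs with a start in that set, Gas5 and Miat had one, Gas5 at its second start and not at its first. Of 16 other host genes with a start there, 2 had one (Snhg7 and Snhg8). Gas5 overlaps Zbtb37 on the opposite strand without sharing an exon base, and the strand setting of the counting is not given in the sources used here, so its count is uncertain to that extent. Zbtb37 had a log2 fold change of -0.13. Snord47, the small nucleolar RNA counted apart from its host, had 11 to 35 reads in wild type and 13 to 27 in Ythdf2-/-.

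The other host genes of small nucleolar RNAs had mostly lower values in Ythdf2-/- too. Among 17 tested, 15 log2 fold changes were below 0 and 2 above, with a median of -0.25, where 51.9% of all genes were below 0. 0 passed edgeR's adjusted p of 0.05, 2 had an unadjusted p under 0.05 (both lower, as in 1.82% of all genes), and 3 did not overlap between genotypes (all lower, as in 4.92% of all genes). Their summed level was 267 to 283 CPM in the wild-type libraries and 205 to 237 CPM in the Ythdf2-/- libraries. Snhg1 had 42.1, 34.6 and 39.3 CPM in wild type and 29.0, 33.8 and 29.1 CPM in Ythdf2-/-. Snhg5 had 46.8, 47.6 and 33.4 CPM in wild type and 34.1, 37.8 and 27.7 CPM in Ythdf2-/-. Snhg1 was apart between genotypes, and Snhg5 overlapped. Zfas1 had 29.7, 34.1 and 37.0 CPM in wild type and 34.3, 32.6 and 25.5 CPM in Ythdf2-/-, and overlapped too. Outside the naming rule, and chosen after their values were seen, Snhg3 and Snhg17 were the other genes of the list that did not overlap. Snhg3 had a log2 fold change of -0.67 and Snhg17 of -0.38, each with adjusted p = 0.999 in edgeR's test. Without wild-type replicate 3 the list had 14 below 0 and 3 above with a median of -0.23, where 48.3% of all genes were below 0 and their median was 0.01. The spliced host RNAs are known targets of nonsense-mediated decay, and 10 genes of that pathway had 6 log2 fold changes above 0 and 4 below (median 0.01), with 0 called (8 above and 2 below without wild-type replicate 3). Smg1 and Smg5 had 0.01 and -0.20.

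**Figure D4:**
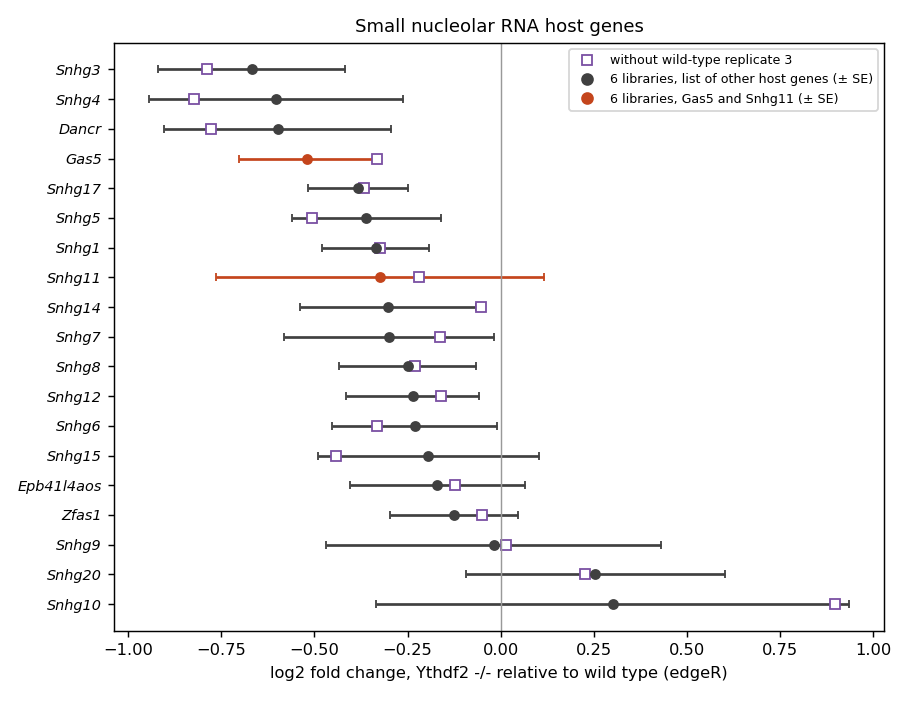
Log2 fold change of Ythdf2-/- relative to wild type (edgeR) for host genes of small nucleolar RNAs, with bars for the standard error; open squares leave out wild-type replicate 3. Gas5 and Snhg11 are in red, and 15 of the 17 other host genes lie below 0.

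Snhg11, a host gene expressed in neurons, was near the lower end of the measured range, with 78 to 105 reads per wild-type library. Its levels were 6.67, 8.01 and 8.95 CPM in wild-type replicates 1, 2 and 3, and 4.17, 10.7 and 3.94 CPM in Ythdf2-/- replicates 1, 2 and 3. Ythdf2-/- replicate 2 was the highest and the other Ythdf2-/- libraries were the lowest of all 6. Its log2 fold change of -0.32 in edgeR's test (standard error 0.441, adjusted p = 0.999) was below 0 whichever library was left out (-0.94 to -0.08). Snhg11 lies on chr2:158375713-158386474 (plus strand, 5 exons) with 2 small nucleolar RNA genes inside. It also differed from the others in the deposited gene tables: its expected counts came to 66.0% of its counted reads, where those of the other 7 RNAs came to 0.0536% (Pantr1) to 7.69% (Rmst). The median over all genes tested was 0.196%, and 6.09% of genes exceeded 30%. The cause was not tested.

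Sox2ot holds the gene of the progenitor factor Sox2 in an intron on the same strand (chr3:34560381-34677993, plus strand, 5 exons) and shares no exon base with it. It had 15.8, 17.2 and 38.7 CPM in wild-type replicates 1, 2 and 3, and 12.7, 25.2 and 14.47 CPM in Ythdf2-/- replicates 1, 2 and 3. As in Neat1, wild-type replicate 3 and Ythdf2-/- replicate 2 were highest in their groups, and the genotypes overlapped. The log2 fold change of -0.45 (standard error 0.44, adjusted p = 0.999, edgeR) was 0.08 without wild-type replicate 3. Sox2 had 348, 316 and 550.1 CPM in wild type and 425, 426 and 378 CPM in Ythdf2-/-, with a log2 fold change of 0.02 (standard error 0.239, adjusted p = 0.999, edgeR). Without wild-type replicate 3 the value for Sox2 was 0.30 (adjusted p = 0.281, edgeR). All Ythdf2-/- values of Sox2 then lay above both remaining wild-type values, as in 18.9% of all genes (20.0% lay below both). Both Sox2ot and Sox2 were highest in wild-type replicate 3, while Ythdf2-/- replicates 1 and 2 were nearly equal in Sox2 and apart in Sox2ot.

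Pantr1 starts 943 bases from Pou3f3, a POU factor gene of cortical neurons, and is transcribed away from it (chr1:42648200-42694825, minus strand, 4 exons). It had 84.5, 75.8 and 59.9 CPM in wild-type replicates 1, 2 and 3, and 71.4, 99.1 and 62.5 CPM in Ythdf2-/- replicates 1, 2 and 3. It was the steadiest of the 7 RNAs, with 1.66 times between its highest and lowest library, and the only one whose lowest value came from wild-type replicate 3. In edgeR's test its log2 fold change was 0.08 with all libraries (standard error 0.222, adjusted p = 0.999) and -0.04 without wild-type replicate 3. Pou3f3 had 151, 135 and 135 CPM in wild type and 146, 139 and 145 CPM in Ythdf2-/-, with a log2 fold change of 0.03 (standard error 0.113, adjusted p = 0.999, edgeR).

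Rmst, an RNA of developing neurons that is known to bind Sox2 protein, was barely detected. It had 0, 2 and 8 reads in wild-type replicates 1, 2 and 3 and 1 read in each Ythdf2-/- library. A count of 0 allows up to 3 reads, or 0.257 CPM, in wild-type replicate 1, and 3 reads corresponded to 0.222 to 0.274 CPM in the 6 libraries. Only wild-type replicate 3, at 0.731 CPM, lay above that limit, and a difference between genotypes was not detectable at this depth. These limits cover counting error only. Rmst lies on chr10:92081746-92165178 (minus strand, 13 exons).

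Ythdf2-/- replicate 2 had the highest value of its group in 5 of the 7 RNAs (Neat1, Sox2ot, Miat, Pantr1 and Snhg11). In Miat it was nearly tied with Ythdf2-/- replicate 1 (169 and 168 CPM). The share of all genes with this library highest of its group was not counted, so the 5 have no background. Without Ythdf2-/- replicate 2, Neat1, Sox2ot and Snhg11 joined Gas5, so that 4 RNAs did not overlap between genotypes, all lower in Ythdf2-/-, where 11.1% of all genes were lower and 11.0% higher in that way.

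**Figure D5:**
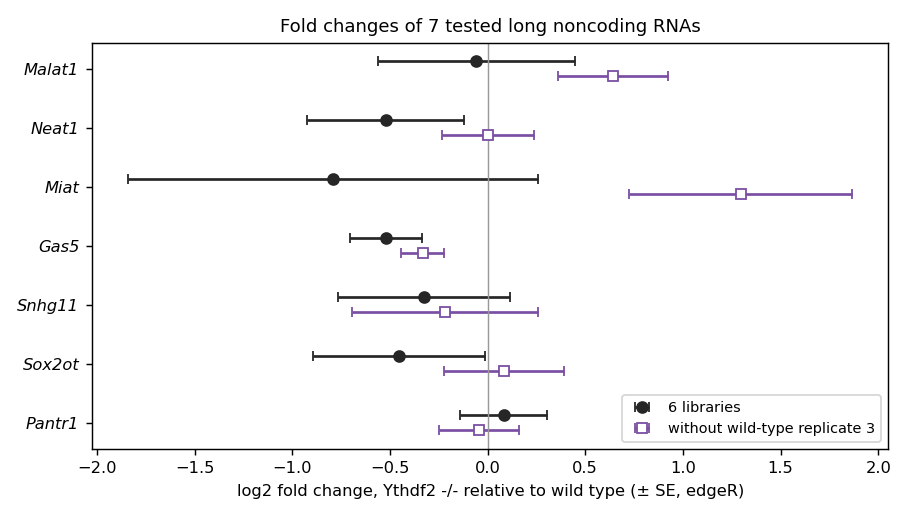
Log2 fold change of Ythdf2-/- relative to wild type for the 7 tested RNAs, with bars for the standard error (edgeR), over 6 libraries (filled) and without wild-type replicate 3 (open). Malat1, Neat1, Miat, Sox2ot and Pantr1 change sign between these fits, and Gas5 (-0.52 and -0.33) and Snhg11 (-0.32 and -0.22) do not.

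Of 27 other long noncoding RNAs of a list that were in the table, 17 were tested and 0 called in edgeR's test, and 0 had an unadjusted p under 0.05. Of these, 7 log2 fold changes were above 0 and 10 below, with a median of -0.11 (0.24 without wild-type replicate 3). Tug1, the most abundant, had 155, 155 and 232 CPM in wild type and 201, 186 and 208 CPM in Ythdf2-/-. Kcnq1ot1, which silences imprinted genes on its own chromosome, had 75.6, 69.8 and 218 CPM in wild type and 97.1, 86.2 and 123 CPM in Ythdf2-/-. Firre, an X-linked nuclear RNA, had 43.9, 45.1 and 159 CPM in wild type and 61.7, 53.0 and 52.3 CPM in Ythdf2-/-. Wild-type replicate 3 was the highest library for these 3 RNAs, while other RNAs of the list, Pvt1 (12.3 CPM against 37.3 to 75.7) and Six3os1 (26.8 CPM against 40.8 to 64.7), were lowest there. Without that library the log2 fold changes of Tug1, Kcnq1ot1 and Firre were 0.35, 0.49 and 0.32.

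The genes whose pattern over the 6 libraries was nearest to each RNA were found by the root mean square difference of centred log2 CPM. Nearest to Malat1 were Fam228a (0.097), A630089N07Rik (0.12) and Gm17644 (0.13). Neat1 was nearest to Slc23a1 (0.070), Anks1 (0.076) and Smarca1 (0.083), and Sox2ot to Pmepa1 (0.069), Rnf144b (0.070) and Tbc1d16 (0.071). Neat1 and Sox2ot were themselves 0.12 apart, and only 0.122% of genes tested were closer to Neat1 than Sox2ot was. For Miat, Pde9a (0.16), 9430041J12Rik (0.24) and Tox (0.24) were nearest, and 4 genes lay within 0.3, where 233 did for Malat1 and 3999 for Pantr1. Pantr1 was nearest to Zfp280b, D330041H03Rik and Apobec3 (0.057 to 0.060), Gas5 to Tssc4, Rabggta and Gas8 (0.065 to 0.074), and Snhg11 to Tgfb1i1, Angptl2 and Rsg1 (0.13 to 0.15). These are descriptions over 6 libraries that share the pattern of wild-type replicate 3.

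The letters GGACT, the commonest form of the sequence that the m6A writers prefer, were counted in 1 RefSeq transcript of each RNA, on its own strand and as letters only. Miat held 18 in 8760 bases (2.05 per kb), Neat1 23 in 20771 (1.11 per kb) and Malat1 9 in 6983 (1.29 per kb). Snhg11 held 11 (1.80 per kb), Rmst 5 (1.86 per kb), Sox2ot 3 (1.01 per kb), and Gas5 and Pantr1 1 each in transcripts of 550 and 546 bases (1.82 and 1.83 per kb). The median over 12701 tested genes with a transcript was 1.05 per kb, and 92.3% held at least 1. Miat lay above 89.7% of genes in this density, and Rmst, Pantr1, Gas5 and Snhg11 above 84.15% to 85.84%. Malat1 lay above 64.2%, Neat1 above 53.8% and Sox2ot above 47.7%. Whether these sites were methylated was not analysed here.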

How the data were processed

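NSPC input RNA-seq libraries (3 wild type, 3 Ythdf2-/-) were grouped by their labels. mRNA was sonicated to fragments of about 100 nt and made into libraries with a stranded kit. For every gene, the raw count deposited by the authors is a whole number of reads aligned to mm10, with no normalization. The authors also deposited expected counts, TPM and FPKM per gene. The submitters' processing notes name Bowtie2 2.2.9, RSEM 1.2.15 and featureCounts, whereas the paper's methods describe TopHat alignment and RPKM from Cuffnorm, and the strand setting and the handling of multi-mapping reads are not given in the sources used here. The expected counts summed to 2.09% of the raw counts.

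Genes that passed filterByExpr (13112) were tested with edgeR 4.0.16 in R 4.3.3 (TMM factors of 0.988 to 1.03, robust glmQLFit and glmQLFTest, genotype as the only term, Benjamini-Hochberg adjustment). CPM used TMM-scaled library sizes, and log2 CPM a prior count of 2. The common biological coefficient of variation was 0.332. Exact permutation of 3 against 3 libraries allows no p under 0.1, so it was not used. All tests were two-sided, and edgeR's test, DESeq2 and limma-voom were tested on simulated counts. DESeq2 1.42.0, limma 3.58.1 (voom, and log2(FPKM + 1 or + 0.1)), other scalings and filters, the replicate block and leaving out each library were alternatives. Levels per length used RefSeq exons of GRCm38.p6. Expected counts were used through FPKM and as values; TPM was not tested.

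The RNAs, the gene lists and the tests were chosen with earlier results of these data known. Named genes were the 8 RNAs, Ythdf2, up to 3 of the most abundant tested genes of a list and any list gene past the threshold, neighbouring protein-coding genes, and the 3 genes nearest in pattern to each RNA; Nono, Sfpq, Snhg3, Snhg7, Snhg8, Snhg17, Snord47, Pvt1, Six3os1, Pspc1, Hnrnph1, Pnn and single cell type markers were named outside this rule. Some neighbouring and list genes are not reported here by name.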

Additional observations from a re-analysis of the deposited data

How the results depend on the processing

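Of the 7 tested RNAs, 0 were called under every alternative that gave a p-value. DESeq2 gave none for Miat, and Miat and Pantr1 could not be fitted on the FPKM scales. The number of all genes called was 0 and became 1 with RLE or upper quartile scaling, without a filter or with at least 10 counts in every library, 31 with DESeq2, 151 with limma-voom and sample quality weights, and 0 to 2 when a library was left out, the 2 without wild-type replicate 3. The sign of the log2 fold change turned in 21 of 122 alternative values. Malat1 (-0.06 in the fit as reported) was 0.084 with limma-voom, 0.62 with quality weights, 0.21 and 0.22 with limma on log2(FPKM + 1) and log2(FPKM + 0.1), and -0.31 to 0.64 when a library was left out (0.64 without wild-type replicate 3, 0.15 without Ythdf2-/- replicate 2). With quality weights Miat was 1.19, Pantr1 -0.12, Gas5 -0.281, Neat1 -0.175, Sox2ot -0.236 and Snhg11 -0.686. Limma-voom without weights set Miat at -0.088. On the 2 FPKM scales Neat1 was 0.23 and 0.38, Sox2ot 0.37 and 0.42, and Gas5 0.97 and 2.03, from far fewer reads. When a library was left out, Neat1 ranged from -0.75 to 0.003, Sox2ot from -0.80 to 0.083, Miat from -1.27 to 1.30, Pantr1 from -0.12 to 0.22 (-0.04 without wild-type replicate 3, -0.12 without Ythdf2-/- replicate 2), Gas5 from -0.62 to -0.33 and Snhg11 from -0.94 to -0.08. The number of RNAs that did not overlap between genotypes was 1 with all libraries, and ranged from 1 to 4 when a library was left out, with 2 without wild-type replicate 3 and 4 without Ythdf2-/- replicate 2. The cause of these changes was not tested, beyond the smaller number of libraries.

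Same-numbered samples of the 2 genotypes correlated at -0.25, -0.24 and -0.39 in their deviations from the group means. These values gave no sign of a pairing by replicate number, but they cannot exclude one. Deviations from a group mean are not independent of each other, and wild-type replicate 3 dominated those of its group. With the replicate block edgeR called 0 genes, Malat1 turned to 0.092 and Miat to 0.33, and Gas5 was -0.50 (unadjusted p = 0.083, adjusted p = 1).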
